A study of Drosophila melanogaster with 6 samples.

Results

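The transcriptome of wild-type Drosophila melanogaster embryos at about stage 14 was described from 3 RNA-seq libraries, the only wild-type libraries among the 6 of the series. They were chosen by their genotype label, with no measured value in the choice, and hold levels for 15135 features, most of them genes. Each library was made from polyadenylated RNA of whole embryos, purified with an RNeasy column kit and prepared with the KAPA mRNA HyperPrep kit. No treatment is named in the labels. The sources used here do not give the wild-type strain, the age window of the collection, the number of embryos or their sex. The remaining libraries, from spo mutants, were not analysed here.

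Stage 14 follows germ band retraction. During it the dorsal epidermis closes over the amnioserosa, the head begins to fold inward, the gut tube encloses the yolk, myoblasts fuse into muscle fibres, tracheal branches join into a network and the first axons are laid down in the ventral nerve cord. Most organs are therefore present as specified and partly differentiated primordia, while the cuticle, the larval digestive enzymes and most synaptic machinery belong to later embryonic and larval life.

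Levels are in TPM, for which the authors took reads per length of each gene and scaled each library to a sum of 1000000. A level is thus a share of the reads after division by length, not of the RNA mass. Comparison between genes rests on the gene lengths used. TPM is relative, and in RNA of whole embryos fewer cells of a type and less RNA per cell cannot be told apart. Values after ± are SDs over the 3 libraries (n = 3). The labels do not say that the libraries came from separate collections, so this spread may be technical. Neighbours in a ranking are said to differ only where the ranges of their 3 libraries do not overlap.

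The depth worked out from the TPM steps was 58714435, 55631517 and 73829549 reads in replicates 1, 2 and 3. For a gene with 1 kb of exons, a single read was worth 0.0315 to 0.0420 TPM. Across the 15135 features, Pearson correlations of log2(TPM + 1) between pairs of libraries were 0.998 to 0.999, where the points share their gene and are not independent replicates.

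A feature was called detected where it reached 1 TPM in each of the 3 libraries. Of the 15135 features, 9619 were detected (63.6%). At the higher bar of 10 TPM in each library 7081 remained (46.8%), and 1787 reached 100 TPM (11.8%). A further 513 features were listed at 0 in every library. The step at 1 TPM cut through a smooth distribution: 93 features had their lowest library between 0.9 and 1 TPM and 104 between 1 and 1.1 TPM. The median level of a detected feature was 32.8 TPM.

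TPM was concentrated in few genes. The 147 features with a mean of 1000 TPM or more made up 38.5% of the TPM, the 1673 features from 100 to 1000 TPM made up 37.8%, and the 5358 features from 10 to 100 TPM made up 22.6%. The 10 most abundant features held 6.78% and the 100 most abundant 32.3%. Together 346 features reached 50% of all TPM. At the other end, the 2067 features above 0 but under 0.1 TPM added 0.00865%.

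**Figure D1:**
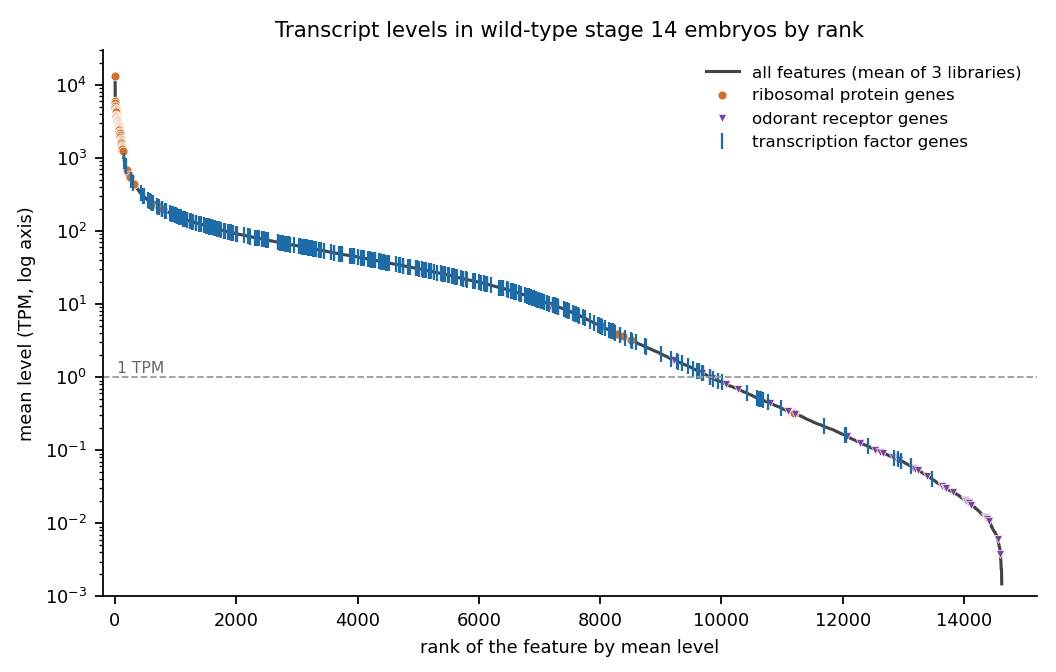
Mean level of each feature over the 3 wild-type libraries (TPM, log axis) against its rank, with ribosomal protein, transcription factor and odorant receptor genes marked. Ribosomal protein genes crowd the top of the curve, transcription factor genes lie mostly between 1 and 500 TPM, and most odorant receptor genes lie under the dashed line at 1 TPM.

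Detection differed between classes of genes. Of 12925 protein-coding genes 8811 were detected (68.2%), and they held 94.7% of the TPM. Of 1729 features annotated as noncoding RNA 447 were detected (25.9%), with a median of 4.21 TPM against 35.8 TPM for detected coding genes. Small nucleolar RNA genes, a separate class in the annotation, went the other way: 221 of 255 were detected (86.7%), with a median of 16.35 TPM. By chromosome arm, 58.8% of features were detected on 2L, 64.4% on 2R, 62.9% on 3L, 65.1% on 3R and 65.9% on X. The small chromosome 4 stood above these with 87 of 101 (86.1%), and on Y only fdy was detected among 20 features, at 5.96, 5.76 and 7.17 TPM. Median levels of detected features were alike across these arms other than Y, from 30.9 TPM on X to 35.5 TPM on 4. The upper quartile was not alike: it was 197.6 TPM on 4, against 71.6 TPM on X to 83.1 TPM on 2R for the large arms. On 4, 35 of 101 features reached 100 TPM in each library, against 11.8% of all features.

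The most abundant transcripts were those of protein synthesis. Ef1alpha48D, the elongation factor that brings charged tRNAs to the ribosome, stood at 13609, 13502 and 13472 TPM. RpL41, which encodes a very short protein of the large ribosomal subunit, stood at 13919, 12869 and 12811 TPM. The ranges of the pair overlapped, and both lay above every other feature. The third was RpS27A, whose product is a ribosomal protein fused to ubiquitin, at 5937, 6023 and 6046 TPM, followed by RpL21 at 5650.0, 5678 and 5699 TPM. Of the 20 most abundant features 14 were ribosomal protein genes, as were 69 of the 100 most abundant. Beyond those and Ef1alpha48D, the first 20 held EF2, the factor that moves the ribosome along the message (4450.0 ± 76.0 TPM), eIF-5A, a further translation factor (4262 ± 95.8 TPM), alphaTub84B, an alpha tubulin (4718 ± 61.5 TPM), the noncoding CR34335 (4026 ± 130.2 TPM) and snoRNA:660. From RpL23 down to RpL6 the levels ran closely, from 5205 to 3763 TPM. Of the 19 neighbouring pairs in the first 20 only 6 did not overlap.

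**Figure D2:**
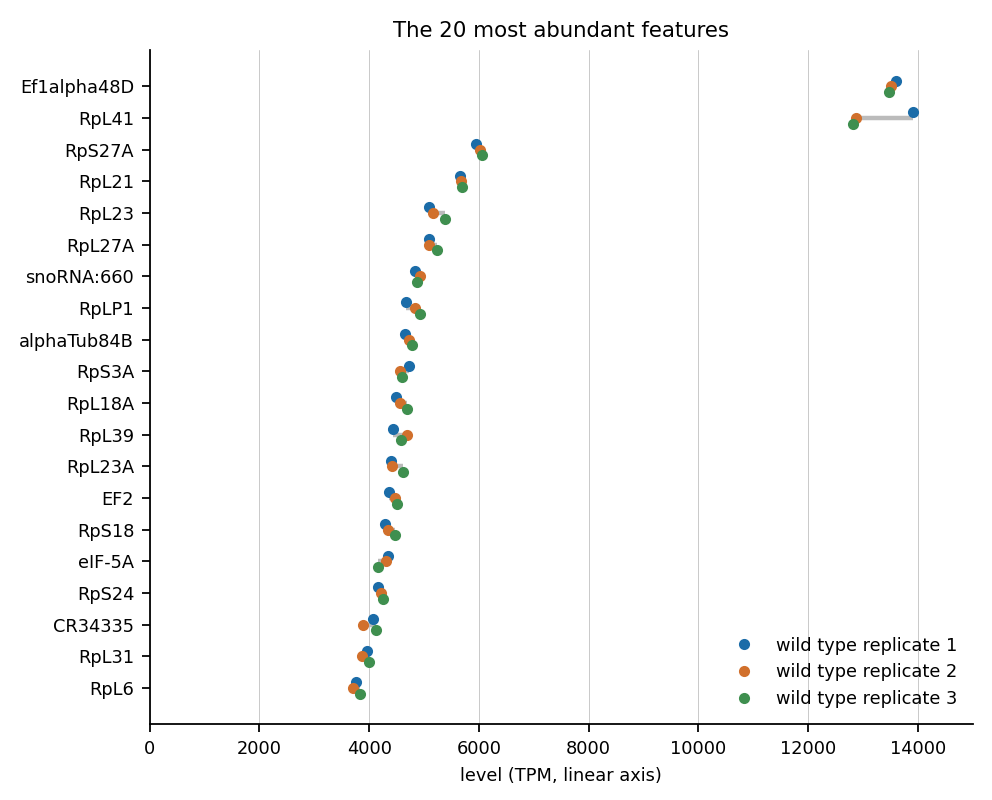
Level of the 20 most abundant features (TPM, linear axis) in each of the 3 wild-type libraries, with a bar from the lowest to the highest. Ef1alpha48D and RpL41 stand apart from the rest, and below them most neighbours overlap.

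The entry snoRNA:660 is annotated as a small nucleolar RNA of 96 bases at 2R, 20945970 to 20946065 on the plus strand (dm6). It lies wholly inside the 3′ UTR of the muscle actin gene Act57B, at 2R, 20944021 to 20946431 on the same strand. It stood at 4836, 4931 and 4875 TPM, against 1943, 1949.7 and 1966 TPM for Act57B. How reads that touch both genes were counted is not stated in the labels, so reads of the small RNA and of the actin message cannot be told apart in this value.

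Ribosomal protein genes as a group took 24.6 ± 0.247% of the TPM. As a share of reads, with no division by length, the group took 9.41%. Membership was read from the symbols of the features themselves. Of the 92 genes taken in this way 91 were detected, with a median of 2731 TPM. The list split into a main set and a small set of duplicated genes: 86 reached 100 TPM in each library and the others lay under 11 TPM. Those others were RpS19b (9.85 ± 0.767 TPM), RpS10a (4.97 ± 0.413 TPM), RpL37b (3.94 ± 0.101 TPM), RpL22-like (3.63 ± 0.499 TPM), RpS28-like (3.19 ± 0.420 TPM) and RpS28a. The last was the single member under 1 TPM, at 0, 0.553 and 0.414 TPM.

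Translation factors other than ribosomal proteins were detected in 24 of 24 cases, and 23 reached 100 TPM in each library. Rack1, a scaffold on the small ribosomal subunit, averaged 2565 ± 74.0 TPM, the helicase eIF-4a 2260.0 ± 22.1 TPM and the poly(A)-binding protein pAbp 1952 ± 111 TPM. The exception was Ef1alpha100E, the second elongation factor 1 alpha gene, at 13.9, 14.2 and 13.0 TPM, far under the range of Ef1alpha48D. The cytoskeletal list had 21 of 22 members detected with a median of 401 TPM. After alphaTub84B came the cytoplasmic actins Act5C (3101 ± 21.7 TPM) and Act42A (1879 ± 16.0 TPM) and the beta tubulins betaTub60D (1803 ± 4.96 TPM) and betaTub56D (1738 ± 18.1 TPM). alphaTub67C, the maternal alpha tubulin of the egg, was the single member of that list under 1 TPM, at 0.517, 0.442 and 0.331 TPM.

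Chaperone genes were led by the cytosolic Hsc70-4 at 3129, 3178 and 3232 TPM. The endoplasmic reticulum chaperones Hsc70-3 (2096 ± 10.6 TPM) and Gp93 (1416 ± 20.1 TPM) came next, then Hsp83 (1203 ± 6.31 TPM). All members of the chaperonin ring that folds actin and tubulin lay close together, from 234 TPM for Cctgamma to 332 TPM for CG7033 (CCT2). Among chromatin proteins, the nucleosome-binding HmgD stood at 2393, 2397 and 2350.2 TPM and Df31, a chromatin decondensation factor, at 2095, 2059 and 2009 TPM. The replacement histones His3.3B (1801 ± 48.4 TPM) and His2Av (1294 ± 9.93 TPM), whose messages carry poly(A) tails, were also above 1000 TPM. BigH1, the linker histone of the early embryo, stood at 2.40, 2.496 and 2.26 TPM. Glycolytic genes were low beside these: 12 of 13 were detected with a median of 20.6 TPM, Eno being the highest at 103, 108 and 107 TPM and ImpL3, the lactate dehydrogenase gene, next at 79.9, 76.8 and 79.2 TPM. Gapdh1 (20.6 ± 1.42 TPM), Gapdh2 (19.1 ± 2.01 TPM) and Pgk (20.02 ± 1.34 TPM), enzymes of the middle of the pathway, were within a few TPM of each other.

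Marker genes of 24 tissues and cell types were then read. The lists are short, hold 317 different genes and share some members, since many embryonic regulators act in several tissues. Of these genes 251 were detected (79.2%), against 63.6% of all features, with a median of 21.7 TPM. The counts detected in single lists below are to be read beside the same 63.6%. The medians of the lists ran from 0.227 TPM for peptidergic cells to 106 TPM for myoblast fusion. Markers of ectoderm, mesoderm, endoderm and germ line were all among the detected genes.

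**Figure D3:**
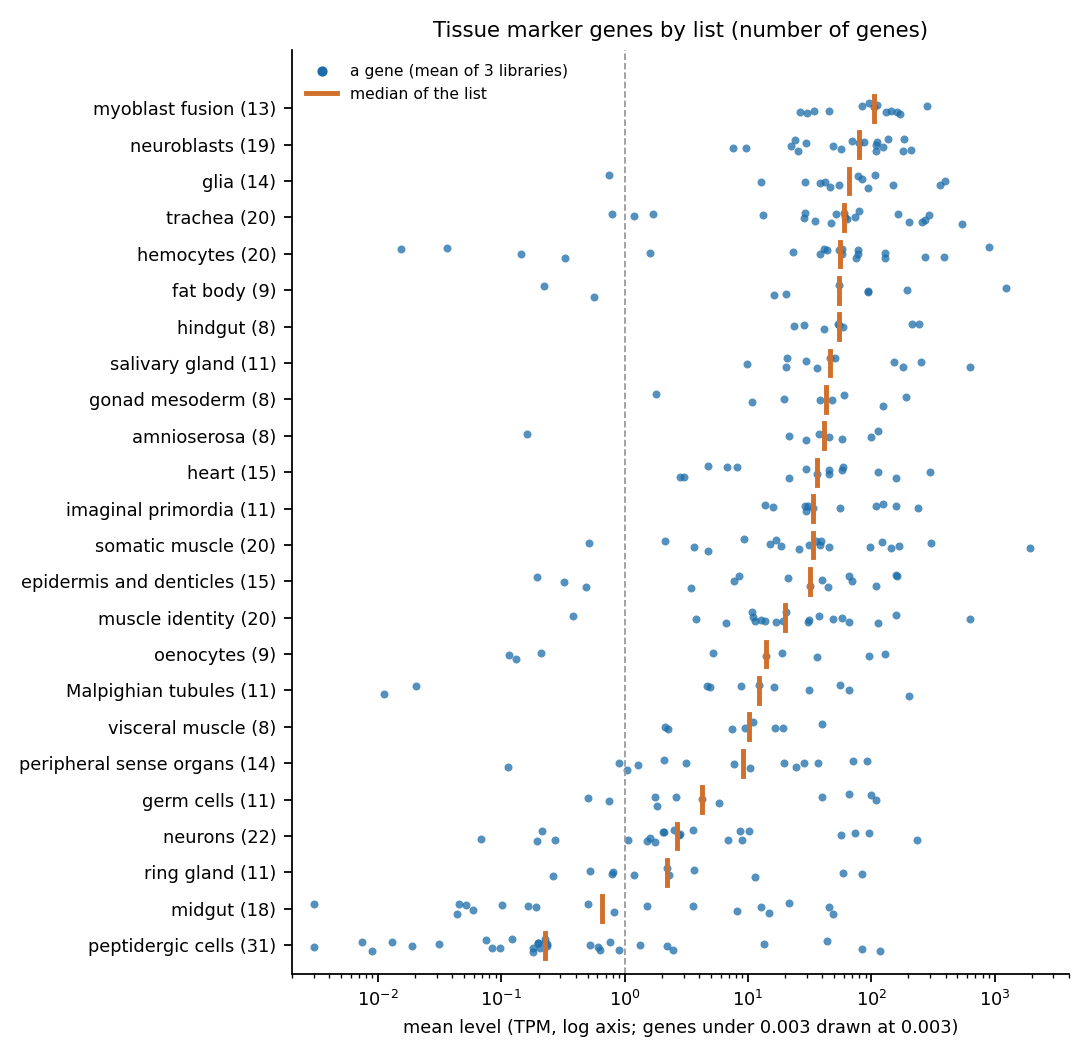
Mean level of each tissue marker gene (TPM, log axis) over the 3 wild-type libraries, 1 row per list with its number of genes, sorted by the list median (bar). The dashed line marks 1 TPM. Peptidergic cells and the midgut are the 2 lists whose median lies under it.

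The somatic muscle list holds the contractile apparatus and its master regulator. 19 of 20 genes were detected, with a median of 33.4 TPM. Act57B, the main larval muscle actin, was the highest at 1943, 1949.7 and 1966 TPM, a narrow range, and Act87E, a second muscle actin, followed at 303, 308 and 307 TPM. Mef2, the transcription factor that switches on muscle structural genes, stood at 145, 146 and 145 TPM. Tropomyosin Tm1 averaged 167 ± 5.09 TPM and the myosin light chain Mlc2 123 ± 2.83 TPM. Genes of giant sarcomere proteins were lower per length: Mhc, the muscle myosin heavy chain, at 25.6, 25.5 and 26.7 TPM, sls, a titin-like protein of the Z disc, at 16.5, 16.7 and 17.002 TPM, and Unc-89, the obscurin of the M line, at 0.546, 0.507 and 0.489 TPM, the only member under 1 TPM. Actin messages thus stood far above the message of the myosin heavy chain, with no overlap.

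Genes of myoblast fusion had the highest median of the tissue lists, 106 TPM, and all 13 matched members reached 10 TPM in each library, against 46.8% of all features. The adaptor Crk led at 281, 289.6 and 276 TPM. sns, the adhesion receptor of fusion-competent myoblasts, stood at 174, 171 and 172 TPM, and rst, an adhesion protein of founder cells, at 145, 145 and 140.3 TPM. mbc, part of the exchange factor that remodels actin at the fusion site, averaged 161 ± 0.793 TPM. kirre, the founder-cell partner of sns, was the lowest member at 27.1, 25.9 and 25.5 TPM, below the range of every other member of the list.

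Transcription factors that give individual muscles their identity were detected in 19 of 20 cases with a median of 19.8 TPM. rib (636 ± 3.31 TPM), sd (158 ± 1.73 TPM), tup (113 ± 4.06 TPM) and caup (65.4 ± 0.739 TPM) were the highest, and each is also used in other tissues. More restricted factors such as slou (10.97 ± 0.125 TPM), eve (10.7 ± 0.249 TPM) and lms (3.79 ± 0.218 TPM) were lower. lbe, a ladybird gene, was under 1 TPM at 0.280, 0.424 and 0.429 TPM, while its neighbour lbl stood at 13.0, 12.9 and 12.3 TPM. The visceral muscle list had all 8 members detected with a median of 10.2 TPM, led by HLH54F, a factor of the caudal visceral mesoderm, at 38.4, 41.7 and 39.6 TPM, then org-1 (19.1 ± 0.780 TPM), bin (16.6 ± 0.466 TPM) and slou. In the heart list, whose 15 members were all detected, the guidance ligand sli (301 ± 2.41 TPM) and its receptor robo (159 ± 2.09 TPM) were highest and are shared with the nervous system. tup and Hand, a factor of heart and blood progenitors, followed, Hand at 59.2, 59.3 and 59.7 TPM. tin, the first regulator of the cardiac lineage, stood at 8.09, 7.90 and 8.46 TPM, below all of these.

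In the nervous system, the median of the neuroblast list was far above that of the neuron list. The neuroblast list includes grh, esg and sna, which are also on lists of other tissues, so its median is not a level of neuroblasts alone. The neuroblast list had all 19 members detected, with a median of 80.2 TPM and 8 members at 100 TPM or more in each library, against 11.8% of all features. mira, the adaptor that carries fate determinants to the daughter cell, stood at 207, 212 and 213 TPM, brat, which represses growth in that daughter, at 188, 186 and 178 TPM, and stau, an RNA-binding protein, at 184, 183 and 180.4 TPM. The neuroblast factors dpn (80.2 ± 3.23 TPM), ase (69.6 ± 1.41 TPM) and wor (56.9 ± 1.86 TPM) lay close together, and pros, the determinant that mira carries, was lower at 24.2, 23.8 and 23.8 TPM. For dpn 59.3% of the exon bases are shared with an antisense gene. Neuroblasts express a known succession of factors. Of these, hb averaged 43.2 ± 0.985 TPM, Kr 37.3 ± 0.810 TPM, nub 29.6 ± 0.286 TPM, pdm2 25.6 ± 0.237 TPM, cas 136 ± 2.18 TPM and grh 110.1 ± 3.42 TPM. The late factors cas and grh were thus the highest of the succession, and their ranges did not overlap those of the early ones, though hb, Kr and grh are also expressed outside the nervous system.

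The neuron list had 18 of 22 members detected, but with a median of only 2.64 TPM. elav, an RNA-binding protein of all neurons, was the highest at 241, 239.8 and 226 TPM, its relative fne stood at 98.4, 96.4 and 91.2 TPM, the membrane fusion protein Syx1A at 77.5, 74.4 and 70.3 TPM and the factor onecut at 57.8, 56.0 and 55.4 TPM. All other members were near or under 10 TPM. Among them nSyb, the vesicle protein of release sites, stood at 8.71, 8.26 and 8.76 TPM, and brp, the scaffold of the active zone, at 2.73, 2.96 and 2.81 TPM. Transmitter genes were lower still: Cha, the choline acetyltransferase, averaged 2.52 ± 0.130 TPM, Gad1, which makes GABA, 2.10 ± 0.239 TPM and VGlut, the glutamate transporter, 1.76 ± 0.188 TPM. The sodium channel gene para (0.0610, 0.0747 and 0.0676 TPM), the GABA receptor gene Rdl (0.221, 0.210 and 0.210 TPM), Frq1 (0.333, 0.242 and 0.247 TPM) and Ddc (0.213, 0.210 and 0.158 TPM) were under 1 TPM. Of the exon bases of elav 34.2% are shared with arg and a long noncoding RNA gene.

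Glial genes were detected in 13 of 14 cases with a median of 66.1 TPM. The highest were genes of septate junctions, Nrx-IV (394 ± 3.63 TPM), nrv2 (359.6 ± 8.93 TPM) and Gli (151 ± 2.15 TPM), which epithelia share with glia, and drpr, an engulfment receptor (106 ± 2.07 TPM). The glial master regulator gcm stood at 77.2, 79.1 and 76.9 TPM and is also used in blood cells, and repo, the factor restricted to glia, stood at 29.3, 28.5 and 29.9 TPM. The mature glutamate transporter Eaat1 was under 1 TPM at 0.659, 0.870 and 0.702 TPM. In the peripheral sense organ list 11 of 14 were detected. cpo (92.0 ± 3.71 TPM), rho (71.4 ± 5.04 TPM), ham (37.3 ± 0.478 TPM) and sv (28.7 ± 1.27 TPM) led. They are used in sensory precursors but not only there, and rho is also on the list of the EGFR pathway. Channel genes of mature mechanosensory neurons were low, with nan at 1.355, 1.19 and 1.27 TPM, iav at 1.02, 0.969 and 1.14 TPM and nompC at 0.888, 0.920 and 0.864 TPM. amos, a proneural gene of olfactory organs, stood at 0.152, 0.107 and 0.0801 TPM.

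Neuropeptide and peptidergic genes formed the lowest tissue list. Only 6 of 31 were detected and the median was 0.227 TPM. The highest were Phm, an enzyme that amidates peptides (117 ± 2.93 TPM), and the insulin-like peptide genes Ilp4 (84.9 ± 4.84 TPM) and Ilp6 (43.9 ± 1.09 TPM), which act outside the nervous system as well. ETH, the ecdysis triggering hormone of the tracheal Inka cells, stood at 12.8, 14.4 and 13.2 TPM, with 90.5% of its exon bases shared with an antisense gene. dimm, the regulator of peptidergic fate, had 0.809, 1.097 and 0.784 TPM, of which only the middle value passed 1 TPM. Pdf (0.234, 0.0618 and 0.324 TPM) and Hug (0.0385, 0 and 0 TPM), among the best known neuropeptide genes, were near or at 0.

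The tracheal list had 19 of 20 members detected with a median of 60.5 TPM. The chitin deacetylase genes verm and serp, which shape the luminal matrix that sets tube length, stood at 534, 543 and 541 TPM and 271, 273 and 277 TPM. sinu, a claudin of septate junctions, stood at 301, 302 and 283 TPM and the POU factor vvl at 265, 258 and 255 TPM. The selector trh (61.1 ± 0.231 TPM) and the FGF receptor btl (47.4 ± 0.977 TPM) were lower than this matrix and junction group. The genes of that group are not restricted to the trachea, so this is not a contrast within tracheal cells alone. In the Osiris family of secreted or membrane proteins of cuticle-making cells, Osi6 (73.7 ± 2.22 TPM) and Osi7 (63.7 ± 1.92 TPM) were well above Osi20 (1.69 ± 0.372 TPM), Osi19 (1.18 ± 0.0655 TPM) and Osi18, the latter under 1 TPM at 0.909, 0.728 and 0.744 TPM.

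Epidermal genes were detected in 12 of 15 cases with a median of 32.0 TPM. The zona pellucida domain genes neo (163 ± 4.53 TPM), tyn (159 ± 2.65 TPM) and nyo (69.6 ± 0.819 TPM), whose products shape the apical matrix of denticles, were high together with grh, the factor of epithelial barrier genes, and ovo, whose epidermal isoform directs denticle formation, at 67.8, 66.2 and 63.5 TPM. Genes for hardening and pigmenting the cuticle were not detected: ple, the tyrosine hydroxylase, stood at 0.554, 0.519 and 0.389 TPM and Ddc at 0.213, 0.210 and 0.158 TPM. Also under 1 TPM was the matrix gene zye, at 0.340, 0.341 and 0.282 TPM.

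The salivary gland list had all 11 members detected. rib and CrebA, a factor that raises secretory capacity, led at 634, 639.9 and 635 TPM and 262, 256 and 247 TPM, then ps, an RNA-binding protein (181 ± 4.06 TPM), and fkh, the factor of gland survival and shape (154 ± 0.560 TPM). sage, which is restricted to this gland, stood at 20.99, 20.8 and 20.4 TPM, and the gland's prolyl hydroxylase genes PH4alphaSG1 and PH4alphaSG2 at 46.5 ± 0.872 TPM and 36.1 ± 0.771 TPM.

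The midgut list had 8 of 18 detected with a median of 0.658 TPM, led by GATAe, the endodermal GATA factor, at 49.1, 48.9 and 48.7 TPM, Ptx1 at 44.6, 46.9 and 45.6 TPM and the gap junction gene Inx7 at 22.2, 20.9 and 21.97 TPM. Among the enzymes, the maltase genes Mal-A5 (14.9 ± 0.732 TPM) and Mal-A1 (8.11 ± 0.734 TPM) were the highest. The trypsin genes alphaTry (0.0463, 0 and 0.1098 TPM) and betaTry (0, 0 and 0.176 TPM) and the protease gene Jon65Aiv (0.0440, 0.0929 and 0 TPM) stood at or near 0, and epsilonTry was listed at 0 in all libraries. In the hindgut list all 8 members were detected, bowl (242 ± 7.70 TPM) and drm (215 ± 4.59 TPM) being far above en (59.5 ± 0.676 TPM), otp (54.8 ± 0.261 TPM) and the hindgut selector byn (23.6 ± 0.560 TPM). Malpighian tubule genes were detected in 9 of 11 cases. The regulators tsh (202 ± 1.28 TPM), caup, ct (55.2 ± 0.972 TPM) and ara (31.0 ± 0.595 TPM) led, and Uro, the urate oxidase of working tubules, stood at 0, 0.0333 and 0 TPM.

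Rfabg, the gene of apolipophorin, the main lipid carrier of the hemolymph (now called apolpp), was among the most abundant tissue genes at 1248, 1259.7 and 1207 TPM. Its partner Mtp, which loads lipid onto it, stood at 195, 197 and 191 TPM, Apoltp at 94.7 ± 1.52 TPM and Desat1, a fatty acid desaturase, at 93.4 ± 3.94 TPM. Lsp2, a storage protein gene of the late larval fat body, and Fbp1, the gene of the receptor that takes up such proteins, were under 1 TPM at 0.225, 0.153 and 0.292 TPM and 0.551, 0.679 and 0.454 TPM. Of the exon bases of Lsp2 84.6% are shared with an antisense gene. Among hemocyte genes 16 of 20 were detected with a median of 56.3 TPM. LanA, a laminin also made by other cells, stood at 888, 891 and 913 TPM, the engulfment receptor gene NimC4 at 385, 390.4 and 393 TPM and the matrix gene Ppn at 269, 273 and 275 TPM. The crystal cell prophenoloxidase genes PPO2 and PPO1 had overlapping ranges, at 127, 130.2 and 133 TPM and 126, 131 and 129 TPM. The 4 hemocyte markers under 1 TPM, all well known from larval blood, were NimC1 (0.339, 0.230 and 0.411 TPM), Hml (0.142, 0.114 and 0.177 TPM), He (0, 0.0624 and 0.0468 TPM) and eater (0.0362, 0 and 0.00954 TPM).

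The amnioserosa, the extraembryonic tissue being covered at this stage, had 7 of 8 genes detected. tup (113 ± 4.06 TPM), peb (100.01 ± 1.54 TPM), ush (57.7 ± 0.482 TPM) and Doc1 (45.7 ± 2.47 TPM) led, all of them used elsewhere too. zen, which specifies the tissue in the blastoderm, stood at 0.283, 0.0995 and 0.0994 TPM. Of the germ cell genes 9 of 11 were detected, and the list median was 4.25 TPM. At the top were tud (109.5 ± 0.343 TPM), gcl (99.7 ± 1.31 TPM), ovo and aub (39.6 ± 1.348 TPM). Since ovo is also on the epidermal list, its level is not one of germ cells alone. The germ line helicase gene vas stood at 4.32, 4.09 and 4.34 TPM and nos at 1.98, 1.97 and 1.31 TPM. pgc (0.854, 0.520 and 0.857 TPM) and osk (0.513, 0.527 and 0.461 TPM), messages of the germ plasm, were under 1 TPM, and 46.9% and 84.1% of their exon bases are shared with other genes. The somatic gonad list had all 8 members detected, led by abd-A, esg (123 ± 3.35 TPM), Abd-B and so (48.0 ± 0.468 TPM), with tj, a factor of gonadal somatic cells, at 2.05, 1.62 and 1.66 TPM. Genes of the imaginal primordia, the founder groups of adult organs, were all detected (11 of 11), hth (241 ± 8.58 TPM), sd, esg and sna (109 ± 1.93 TPM) being the highest, while Dll, which marks limb primordia, stood at 30.6, 27.9 and 29.2 TPM and vg, the wing gene, at 14.1, 13.6 and 13.3 TPM.

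Oenocytes, the lipid-processing cells of the body wall, had 6 of 9 genes detected (66.7%), near the 63.6% of all features. CG1444 (spidey), an enzyme of long fatty acid and steroid metabolism, stood at 133, 128 and 130.1 TPM and the oenocyte regulator salm at 97.1, 95.4 and 94.7 TPM. svp (36.5 ± 1.05 TPM) and CG17374 (FASN3, 19.02 ± 0.376 TPM) followed. The fatty acid synthase gene FASN2, listed as v(2)k05816 (0.200, 0.201 and 0.228 TPM), Cyp4g15 (0.0756, 0.223 and 0.0957 TPM) and eloF (0.0427, 0.135 and 0.169 TPM) were under 1 TPM. In the ring gland list, which covers the enzymes of hormone synthesis, 6 of 11 were detected (54.5%), under the share of all features. mld, a zinc finger factor of ecdysone synthesis genes, stood at 83.2, 83.3 and 83.5 TPM, and jhamt, a late enzyme of juvenile hormone synthesis, at 56.6, 57.8 and 61.2 TPM. Of the Halloween genes for ecdysone synthesis, dib (11.4 ± 0.246 TPM) was highest, sad (2.27 ± 0.189 TPM) lower, and phm (0.759, 0.744 and 0.9004 TPM), spo (0.944, 0.726 and 0.696 TPM) and sro (0.310, 0.291 and 0.191 TPM) were under 1 TPM. nvd, an early enzyme of the same pathway, averaged 3.67 ± 0.371 TPM, and Akh and Mip, peptide genes of the gland and of the gut and brain, averaged 2.21 ± 0.356 TPM and 0.522 ± 0.214 TPM.

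Transcription factors were widely detected. Of 340 matched factor genes 316 were detected (92.9%, against 63.6% of all features), and 71 reached 100 TPM in each library. Their median was 34.6 TPM and together they took 2.204 ± 0.0305% of the TPM, less than a single group such as the ribosomal proteins. The list was written from well known developmental regulators and is not a census of the fly's factors, so its share detected says nothing of factors outside it. Its member cmpy is not a transcription factor and is counted among those not detected.

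The most abundant factor was emc, an HLH protein without a basic region that blocks proneural factors, at 933, 925 and 879 TPM. l(3)neo38, a zinc finger gene, followed at 787, 791 and 752 TPM, and the unfolded protein response factor Xbp1 at 502, 499.9 and 499 TPM. These 3 did not overlap each other or any other factor. ttk, a BTB zinc finger repressor of neural fate, stood at 459, 453 and 442 TPM, and crc, the stress factor ATF4, at 335, 330.5 and 325 TPM, where 73.5% of the exon bases of crc are shared with CG46314. nerfin-1 (302 ± 10.1 TPM), which keeps young neurons from reverting, and ci (299 ± 5.02 TPM), the effector of Hedgehog signalling, overlapped each other. E(spl)m7-HLH (265 ± 4.30 TPM), Dp (261 ± 1.73 TPM), vvl (259 ± 4.98 TPM) and CrebA (255 ± 7.66 TPM) came next. Then followed exd (250.0 ± 13.4 TPM), crol (246 ± 6.40 TPM), Ubx, bowl, hth, ab (240.1 ± 0.462 TPM), crp (223 ± 5.08 TPM), drm and aop (215 ± 3.52 TPM). Of the 19 neighbouring pairs in the first 20 factors 7 did not overlap.

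By family, zinc finger factors of the C2H2 type had a median of 58.1 TPM over 68 genes, with l(3)neo38, ttk and nerfin-1 at the top. The 54 bHLH genes had a median of 39.3 TPM, led by emc, E(spl)m7-HLH and crp. The 3 members under 1 TPM were dimm, amos and the clock gene Clk (0.0353, 0.0837 and 0.0976 TPM). Among 18 bZIP genes, all detected, Xbp1, crc and CrebA, factors of secretory load and stress, stood first. The 95 genes listed as homeodomain genes had a low median of 16.8 TPM and 12 members not detected. Not all of them have a homeodomain: the list also holds the paired domain genes Poxm and Poxn. It holds cmpy too, which is not a transcription factor and is counted among those not detected. The counts and the median are therefore those of the list as written. Their top was vvl, exd and Ubx. The blastoderm genes bcd (0.424, 0.580 and 0.546 TPM), zen and zen2 (0.0795, 0.126 and 0.0314 TPM) were among those not detected, while ftz stood at 10.1, 10.4 and 10.6 TPM and eve at 10.8, 10.8 and 10.4 TPM.

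Of 21 nuclear receptors 18 were detected. Hr46 (Hr3), a receptor of the ecdysone cascade, stood at 139.9, 138 and 135 TPM, Hr4 at 117, 114 and 117 TPM and Hr78 at 112, 112 and 114.6 TPM. Of the exon bases of Hr46 82.7% are shared with other genes. The ecdysone receptor gene EcR (50.5 ± 0.551 TPM) was above its partner usp (38.2 ± 1.19 TPM). ftz-f1, which follows Hr3 in that cascade, stood at 0.973, 0.952 and 0.919 TPM, at the border of detection, and Hr38 at 0.196, 0.169 and 0.119 TPM. All 15 forkhead genes were detected, with fkh, jumu (117 ± 3.74 TPM) and fd68A (FoxK, 115.5 ± 3.35 TPM) first. T-box genes were also all detected and were led by mid (57.7 ± 1.69 TPM), bi (53.6 ± 1.68 TPM) and Doc1. Of the 8 ETS genes, aop, the repressor of Ras signalling, and its activator counterpart pnt (84.2 ± 1.53 TPM) were highest, then Ets97D (40.1 ± 0.622 TPM). The Sox and HMG group was led by SoxN (111 ± 2.95 TPM), cic (106 ± 1.13 TPM) and D (87.4 ± 1.43 TPM), and the 5 GATA genes on the list, grn (69.4 ± 3.16 TPM), GATAd (67.3 ± 0.981 TPM), srp (54.9 ± 1.69 TPM), GATAe and pnr (45.2 ± 0.906 TPM) lay close together. In the mixed group of Runt, STAT, Rel, SMAD, MADS and other factors, whose median was 68.2 TPM, the cell cycle regulators Dp, Myb (212 ± 0.601 TPM) and E2f (166 ± 4.97 TPM) were first. All exon bases of Myb are shared with CG15914 or CG46440, so its reads cannot be told apart from theirs.

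**Figure D4:**
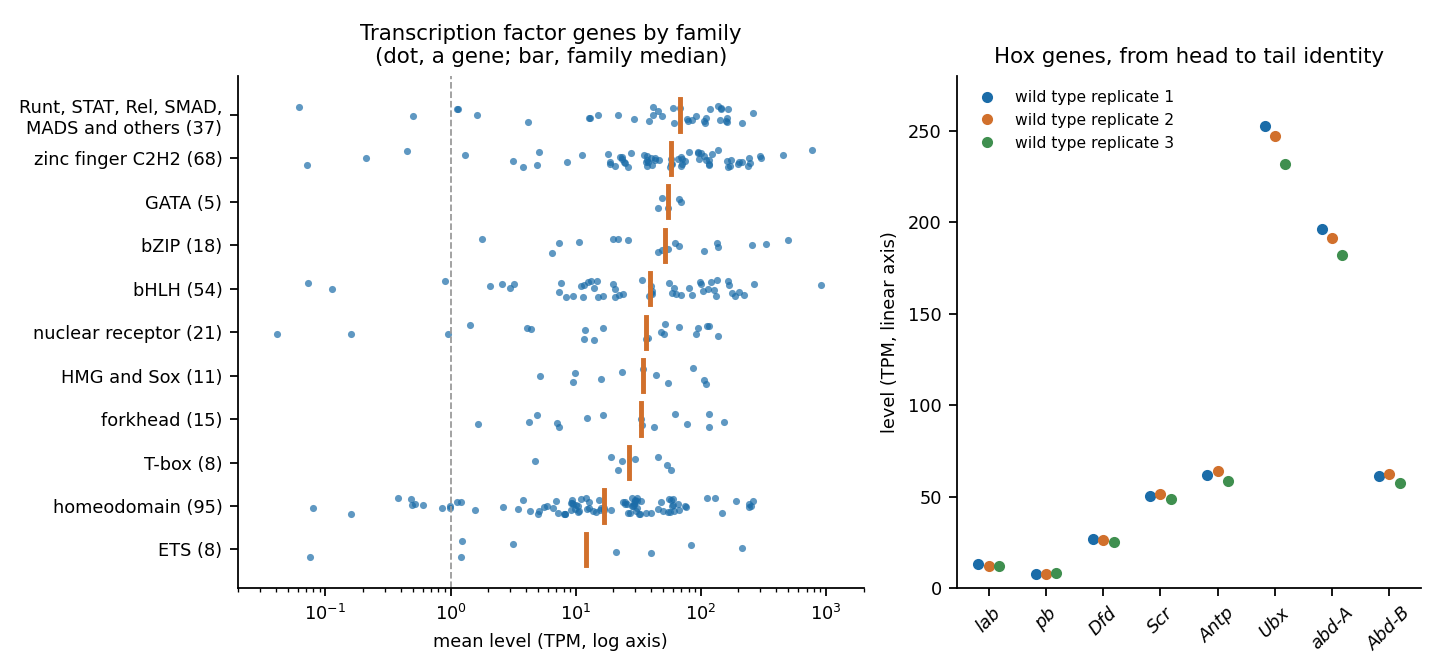
Left, mean level of each transcription factor gene (TPM, log axis) by family, with the family median as a bar and 1 TPM dashed. Right, level of the Hox genes in each wild-type library (TPM, linear axis), ordered by the body region they specify from head to tail, with Ubx and abd-A far above the others.

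The Hox genes give segments their identity along the body axis and lie in the Antennapedia and bithorax complexes on 3R. All 8 were detected. The bithorax genes Ubx, of the posterior thorax and first abdominal segment, and abd-A, of the abdomen, were the highest, Ubx at 252, 247 and 232 TPM and abd-A at 196, 192 and 182 TPM. Antp, of the thorax, stood at 62.0, 64.0 and 58.6 TPM and Abd-B, of the tail end, at 61.4, 62.2 and 57.7 TPM, with overlapping ranges. Scr, of the labial and first thoracic segments, followed at 50.7, 51.7 and 48.6 TPM. The head genes were lower: Dfd at 26.8, 26.6 and 25.5 TPM, lab at 13.4, 12.4 and 12.4 TPM and pb at 7.60, 8.05 and 8.48 TPM. All neighbours in this order other than Antp and Abd-B had ranges that did not overlap. The length behind the deposited TPM was 15438 bases for Abd-B and 7508 for Antp, where 11791 and 7945 are annotated. The levels of Abd-B and Antp, and their places in this order, rest on those lengths. In reads, with no division by length, Abd-B (23814, 22864 and 28270) stood near abd-A (27000, 24973 and 31698). In dm6, Ubx lies at 3R, 16656623 to 16734426, abd-A at 3R, 16807214 to 16830049 and Antp at 3R, 6896253 to 6999228, all on the minus strand. Of the exon bases of Antp 50.1% are shared with CG46458. The cofactors exd and hth, which bind DNA with Hox proteins, stood near Ubx, exd at 257, 259 and 235 TPM and hth at 247, 246 and 231 TPM.

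Genes of 10 signalling pathways were detected in 135 of 145 cases (93.1%, against 63.6% of all features), with a median of 69.4 TPM. Members not detected were mostly ligands. In the Notch pathway, by which neighbouring cells take different fates, all 17 members reached 10 TPM in each library. The receptor N stood at 217, 215 and 222 TPM, above its ligands Dl (137, 136 and 129.6 TPM) and Ser (113, 109.7 and 113 TPM). The target genes E(spl)m7-HLH and E(spl)m3-HLH stood at 269, 265 and 261 TPM and 177, 178 and 175 TPM, while the pathway's own DNA-binding factor, Su(H), was the lowest member at 39.7, 37.8 and 38.4 TPM.

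In the Wnt pathway the ligands Wnt4 (131 ± 5.46 TPM) and Wnt5 (123 ± 2.06 TPM) were above wg (74.96 ± 0.950 TPM), the segment polarity ligand. The Wnt5 receptor drl (274 ± 0.914 TPM) and the wg receptor fz2 (266 ± 5.06 TPM) led the receptors. arm, the beta-catenin that carries the signal and also links cadherins to actin, stood at 1012, 1014 and 1035 TPM, and nkd, a feedback inhibitor, at 241 ± 5.01 TPM. WntD, a ligand of the early embryo, was under 1 TPM at 0.729, 0.330 and 0.631 TPM. In the Hedgehog pathway, all of whose 11 genes were detected, the effector ci and the receptor ptc, which is itself a target, stood at 299, 304 and 294 TPM and 235, 236 and 238 TPM, far above the ligand hh at 32.8, 32.1 and 32.9 TPM. The ligand-side gene disp, which releases Hedgehog from cells, averaged 33.98 ± 0.636 TPM, the co-receptor ihog 81.8 ± 0.686 TPM and the regulator Su(fu) 53.7 ± 0.974 TPM.

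BMP and activin genes were detected in 17 of 20 cases. The ligands mav and gbb had overlapping ranges at 167, 171 and 159 TPM and 167, 161 and 169.7 TPM, and dpp, which patterns the dorsal ectoderm, was lower at 36.8, 36.3 and 34.8 TPM. The type I receptor tkv (293 ± 6.17 TPM) was above the type II receptor put (99.3 ± 1.14 TPM), and the transducer Mad (91.7 ± 5.15 TPM) was close to its inhibitor Dad (82.4 ± 2.56 TPM). scw (0, 0 and 0.0198 TPM) and tsg (0.0898, 0 and 0.106 TPM), partners of dpp in the blastoderm, were near 0, and daw stood at the border of 1 TPM (0.951, 1.07 and 0.974 TPM). In the EGFR pathway all 14 genes were detected. The ligands spi (332 ± 4.67 TPM) and Krn (96.7 ± 3.598 TPM) were above vn, the receptor Egfr stood at 110.3, 110.2 and 111 TPM, and S (Star), which moves spi out of the endoplasmic reticulum, stood at 135, 133 and 131 TPM.

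FGF and PVR genes were all detected (10 of 10) at moderate levels. The ligands Pvf3 (62.8 ± 2.27 TPM) and pyr (50.5 ± 1.96 TPM), the receptors Pvr (78.3 ± 0.616 TPM) and btl, and stumps, the adaptor of FGF receptors (114 ± 1.59 TPM), were the highest of their roles. In the JAK/STAT pathway the factor Stat92E (138 ± 3.59 TPM), its feedback inhibitor Socs36E (102 ± 2.06 TPM) and the receptor dome (86.1 ± 1.44 TPM) were well above the ligands os (upd1, 10.2, 10.6 and 11.2 TPM) and upd2 (1.51, 1.29 and 1.46 TPM), and upd3, a ligand of injury and immune responses, was under 1 TPM at 0.287, 0.511 and 0.340 TPM. Toll receptors were abundant, Tl at 322, 329 and 318 TPM and 18w at 165, 168 and 164 TPM, against 19.1, 18.2 and 17.8 TPM for the ligand spz. The inhibitor cact averaged 117 ± 1.57 TPM and the adaptor tub 26.7 ± 0.695 TPM, while dl and Dif, the Rel factors of the pathway, stood at 4.12, 4.04 and 4.27 TPM and 1.09, 1.08 and 1.23 TPM.

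Insulin and TOR pathway genes were detected in 9 of 14 cases (64.3%), a share near that of all features. Ilp4 stood at 79.5, 86.1 and 88.9 TPM and Ilp6 at 44.9, 44.0 and 42.7 TPM, while Ilp5 (0.167, 0 and 0.198 TPM), Ilp7 (0.305, 0.241 and 0.151 TPM) and Ilp8 (0.367, 0.194 and 0.0363 TPM) were under 1 TPM and Ilp3 was listed at 0. The receptor InR averaged 85.9 ± 1.65 TPM and Lgr3, the receptor of Ilp8, 0.0359 TPM. ImpL2, a secreted binding protein that restrains insulin peptides, stood at 501, 497 and 479 TPM, with 61.9% of its exon bases shared with CG46460, and Thor, the translation repressor 4E-BP, stood at 462, 457 and 458 TPM. Guidance genes, which steer axons and migrating cells, were all detected (20 of 20) with a median of 106 TPM, the highest of the 10 pathways. The ligands Sema-2a (531 ± 11.2 TPM) and sli, the receptors lea (robo2, 289 ± 1.72 TPM) and fra (275 ± 1.82 TPM) and the actin regulators ena (143 ± 2.08 TPM) and trio (72.9 ± 0.503 TPM) led their roles. For lea 41.0% of the exon bases are shared with noncoding genes. The receptor robo3, which positions lateral axons, was the lowest member at 6.31, 6.29 and 5.87 TPM.

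Sex determination and dosage compensation genes were read in whole embryos whose sex is not given. roX1, the noncoding RNA of the male X chromosome complex, was the highest at 683, 677 and 646 TPM, far above its partner RNA roX2 at 15.1, 15.4 and 13.8 TPM. Sxl, the switch gene active in females, stood at 153, 151 and 144 TPM. The complex's helicase mle (73.9 ± 1.19 TPM) was above its other protein subunits msl-1 (52.8 ± 1.16 TPM), msl-2 (47.2 ± 0.610 TPM), msl-3 (44.4 ± 0.154 TPM) and mof (26.8 ± 0.289 TPM). The splicing regulators tra (60.8 ± 3.296 TPM) and tra2 (50.9 ± 1.14 TPM) and the factors ix (64.6 ± 0.863 TPM) and her (44.6 ± 1.21 TPM) lay close to one another. The terminal genes were much lower: dsx, which directs somatic sex, stood at 1.148, 0.961 and 0.922 TPM and fru, which directs male courtship circuits, at 0.194, 0.244 and 0.196 TPM.

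Genes known from other stages, mostly from larval or adult organs, were also read. Low levels of such genes cannot tell stages of the embryo apart, so their levels do not check the stage label. Of 255 such genes in 9 lists 29 were detected (11.4%, against 63.6% of all features), and their median was 0.0801 TPM. This count depended on the threshold: 92 of them reached 0.1 TPM in each library and 6 reached 10 TPM, and 64 had at least 10 reads in each, against 11839, 7081 and 10813 of all features. None of 15 accessory gland genes was detected, and Acp54A1 was the highest at 0.520, 1.92 and 0.309 TPM. Yolk and eggshell genes were detected in 2 of 15 cases, Cp18 (3.01, 2.72 and 2.47 TPM) and Yp3 (1.75, 1.53 and 1.65 TPM), with Cp7Fc next at 1.05, 0.928 and 0.974 TPM. Larval glue and serum protein genes were detected in 1 of 13 cases, Lsp1gamma at 3.47, 3.36 and 2.66 TPM. The glue genes were lower, Sgs3 at 0.251, 0.265 and 0.170 TPM. Of 5 opsin genes only Rh4 was detected, at 3.45, 3.96 and 3.36 TPM, with Rh6 (0.723 ± 0.00887 TPM) and ninaE (0.441 ± 0.0610 TPM) under 1 TPM.

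Odorant receptor genes were detected in 4 of 48 cases, gustatory receptor genes in 2 of 50 and ionotropic receptor genes in 3 of 47. The highest odorant receptor gene was Or43b at 9.50, 10.4 and 9.57 TPM, which shares 40.7% of its exon bases with Cul1, so its reads may belong to that gene. Next were Or71a (1.73 ± 0.341 TPM) and Or2a (1.73 ± 0.111 TPM). Among the gustatory genes Gr59f (2.21 ± 0.493 TPM), Gr66a (2.21 ± 0.221 TPM) and Gr47b (1.153, 1.004 and 0.935 TPM) were highest, and among the ionotropic genes Ir68a (4.15 ± 0.222 TPM), the co-receptor gene Ir25a (4.11 ± 0.397 TPM) and Ir62a (3.84 ± 0.0828 TPM). Of the spermatogenesis genes 5 of 20 were detected. bol, an RNA-binding protein of meiotic entry in the testis, stood at 67.1, 64.3 and 62.6 TPM with 2.04% of its exon bases shared, with a transposon insertion, whereas Pif1A (30.4, 31.1 and 31.4 TPM) and janB (24.0, 23.8 and 24.9 TPM) share 85.7% and 18.8% of their exon bases with other genes, among them Pif1B and janA.

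Odorant binding proteins, small secreted carriers of the antenna and of other tissues, included the highest members of these lists. Of the family 11 of 42 were detected, against 63.6% of all features, and Obp99a, at 3R, 29671657 to 29672334 (dm6), stood at 2393, 2481 and 2502 TPM, which put it at rank 71 of all features. Obp56a followed at 267, 264 and 287 TPM and Obp99c at 108, 108 and 112 TPM, with the fourth, Obp99b, at 5.43, 4.67 and 4.88 TPM. Only these first 3 members of the family passed 10 TPM. None of the exons of Obp99a and Obp56a overlaps another annotated gene.

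The spread between libraries was small, and it came nearer to counting error at low levels than at high ones. The median coefficient of variation (CV, the SD over the mean) of the detected features was 2.85%, and 89.2% of them had a CV under 10%. From 1 to 10 TPM the median CV was 7.62%, beside a median SD of 8.19% expected from counting alone. An SD of 3 values mostly falls under the expected one, so this pair does not show that counting explains the spread. From 100 to 1000 TPM the median CV was 1.62% against 0.917%, and at 1000 TPM and over 1.68% against 0.370%. Abundant genes thus varied beyond counting error. No pair of libraries agreed within sampling noise: chi-square over its degrees of freedom was 1.93 to 4.52, where 1 is the value for counting error alone. Among features under 10 TPM this ratio was 1.32 to 1.49, also above 1.

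**Figure D5:**
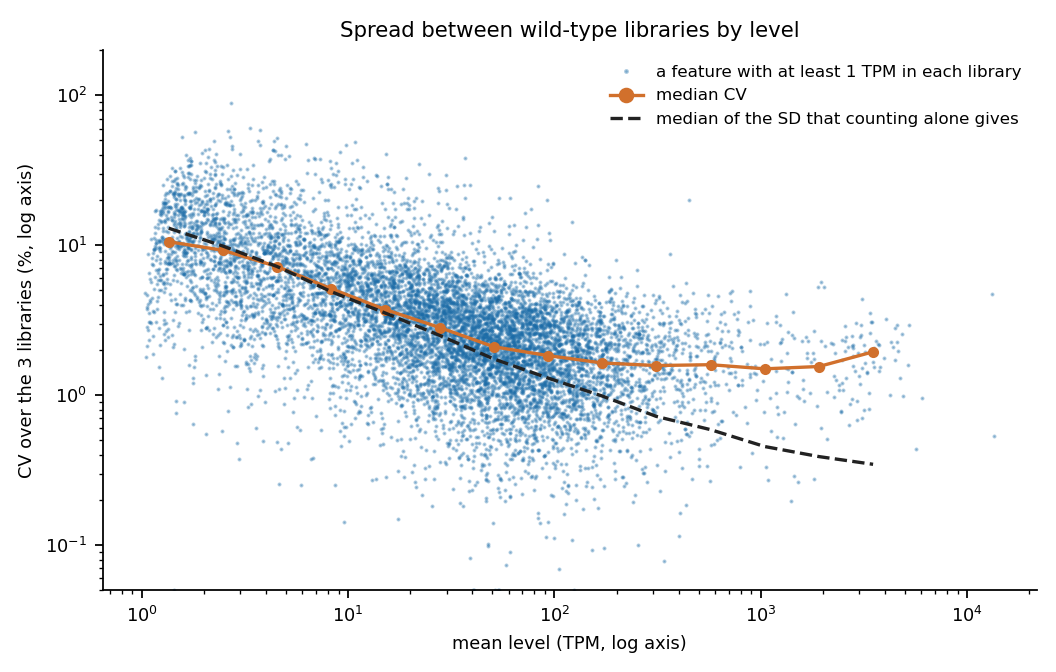
CV over the 3 wild-type libraries (%, log axis) against mean level (TPM, log axis) for the detected features, with the running median and the median SD expected from counting error alone (dashed). The lines run together up to about 30 TPM and part above it, where the median CV levels off near 1.6%. An SD of 3 values mostly falls under the expected one, so lines that run together do not show counting error alone.

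This remaining spread had a direction in replicate 3. All 20 of the most abundant transcription factors had their lowest level there, as did 176 of 316 detected factors (55.7%), against 37.1% of all detected features. In contrast, 64 of 91 detected ribosomal protein genes had their highest level in replicate 3 (70.3%, against 34.4%). The sizes were small. The level in replicate 3 was a median of 1.77% under the mean of the others for factors and 2.04% above it for ribosomal protein genes. Replicate 3 was also the deepest library, and what part depth had in this was not tested.

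The features with the largest CV among those of 10 TPM or more were all short noncoding genes with few reads. snoRNA:Me28S-A982b, a small nucleolar RNA of 77 bases, stood at 11.4, 15.8 and 5.32 TPM, which rests on 22, 29 and 13 reads, a CV of 48.7%. snoRNA:Or-CD11a (40.7%), snoRNA:Or-CD4 (38.1%) and mir-10 (36.9%) came next. The 10 features comprised 8 small nucleolar RNA genes, mir-10 and a further small noncoding RNA gene. The lowest CV among them was 29.3%, in snoRNA:U49:66Da. Mature RNAs of these kinds lack poly(A) tails, and the libraries were made from polyadenylated RNA.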

How the data were processed

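The authors deposited 1 table of TPM for 15135 features, and the 3 wild-type columns were used. The 3 columns of the mutant libraries and the authors' comparison table were not used. The submitters' processing notes list edgeR, Subread, featureCounts, STAR 2.5.3a and FastQC 0.11.2 as tools, with dm6 as the build. The strand setting, the annotation release and how reads touching more than 1 gene were treated were not given in the sources used here. The gene length behind the deposited TPM matched the summed exons of the BDGP6 annotation (Ensembl, dm6 coordinates) for 13695 features, so genes with many long untranslated exons have lower TPM per message. Reads were rebuilt from TPM and length as whole numbers (tolerance 0.0005 reads). Another length was used for 715 features, and parts of a read were allowed for 51 multi-copy features. For 161 features with no annotated length, the smallest length that gave whole reads was taken. In the first and last of these groups the rebuilt reads, and so the depths, rest on that length. The step was run on simulated data with whole reads and a length for every feature. Parts of a read and features with no annotated length were not tested. Python 3.11.15 with pandas 2.3.3 was used.

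Gene IDs were found for 14969 features by current or older symbol. Of 889 names written in the gene lists 34 had no match among the features. 352 features have values equal to those of another feature and share reads with it. The libraries and lists were chosen with earlier results of these data known. No test was run, since 1 genotype is described. The text names up to the 20 most abundant features and factors, the top 3 of each factor family and list of another stage, the top 4 of each tissue list with defining markers under 1 TPM, the top 2 per signalling role, every Hox and sex gene and the largest CVs. A few factors were moved to their proper family after values were seen. Other genes named beside them were chosen after their values were seen.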

Additional observations from a re-analysis of the deposited data

How the results depend on the processing

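Counts of detected features, factors and tissue genes stayed within 1.5 times their value under a threshold of 0.1 or 10 TPM, a mean of at least 1 TPM, equal features counted as 1, and at least 10 rebuilt reads in each library. For all features these gave 7081 to 11839. Genes of other stages depended on the threshold: 92 were detected at 0.1 TPM, 6 at 10 TPM and 64 with at least 10 reads, against 29. As shares of reads, with no division by length, the top 10 features held 5.26%, the top 100 20.8% and ribosomal protein genes 9.41%. Over protein-coding features only, a choice made after seeing the data, these shares were 7.12%, 33.2% and 25.8%. Leaving out each library gave 764 to 880 features at 0, against 513, a median CV of 2.04 to 2.57%, and a ribosomal protein share of 24.4 to 24.7%. The 20 most abundant features were the same by median TPM and without each library. The median SD of log2(TPM + 1) was 0.04. Promoter motifs were not analysed here. No paired analysis was possible because only 1 genotype is described. Depth limits levels under 0.1 TPM, which rest on few reads in a gene of 1 kb, where a single read is worth 0.0315 to 0.0420 TPM.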

Other observations

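Genes of the secretory pathway stood among the most abundant features. They were on no list and were noticed from their values. Crc, the calcium-binding chaperone calreticulin, averaged 3455 ± 106 TPM, the disulphide isomerases Pdi and ERp60 averaged 2854 ± 41.6 TPM and 1502 ± 14.8 TPM, and the translocon subunits Sec61alpha and Sec61beta 1598 ± 17.6 TPM and 1358 ± 16.5 TPM. SsRbeta, of the complex beside the translocon, averaged 1265 ± 30.1 TPM. These values stood beside those of Hsc70-3 and Gp93, chaperones of the same compartment, at 2083, 2103 and 2100.1 TPM and 1403, 1406 and 1439 TPM. The small heat shock protein genes Hsp23 (1324, 1349.7 and 1328 TPM) and Hsp26 (1138, 1136 and 1103 TPM) were also above 1000 TPM. Of the 147 features of 1000 TPM and over, 79 were ribosomal protein genes and 41 were on none of the lists of ribosomal, translation, cytoskeletal, chaperone, chromatin or ubiquitin genes. Among these were the little-studied CG12011 (2911, 2949.9 and 2939 TPM) and CG13159 (2144, 2017 and 1933 TPM).

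Noncoding features at 100 TPM or more in each library numbered 37. For 16 of them all exon bases lie within exons of another gene, and 11 have no such overlap. CR34335, on X, was the highest without overlap, at 4075, 3878 and 4124 TPM. CR42491 stood at 2974, 3078 and 3126 TPM and shares 50.5% of its exon bases with the ribosomal protein gene RpL22. CR42862, a long noncoding RNA on 3L with 5485 exon bases, stood at 1222, 1209 and 1204 TPM, with 4.48% overlap. CR41602, annotated as an 18S ribosomal RNA pseudogene, stood at 1249, 1357 and 1356 TPM, and CR40677, of the 2S kind, at 554, 418 and 381 TPM. Its CV of 20.2% was the largest among features of 100 TPM or more. For CR34335, CR41602 and CR40677 the length behind the deposited TPM was not the annotated exon length, and their levels rest on that other length. What part leftover ribosomal RNA had in these values was not tested.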
